A study of Saccharomyces cerevisiae Vin13 with 18 samples.

Results

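Described here are the genes of Saccharomyces cerevisiae whose change in transcript level between day 2 and day 5 of a Chardonnay fermentation differed with the scale of the vessel. Members were found by the interaction of scale and time: the day 5 minus day 2 difference in 300 L commercial tanks, minus the same difference in 80 ml laboratory vials, on the log2 scale of array intensity. Of 5449 genes tested, 3204 (58.8%) had a called interaction, which here means a Benjamini-Hochberg adjusted p under 0.05 in a limma fit to all genes. They were then sorted by whether the gene moved in opposite directions at the 2 scales, changed at one scale only, or moved the same way by different amounts.

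All groups were of the wine yeast strain VIN13, grown in Chardonnay must at 20 °C from an inoculum of OD600 0.1, with no other treatment. The 4 groups, of 3 arrays each, were tanks on day 5, tanks on day 2, vials on day 5 and vials on day 2, and per the labels the vials were microaerobic, day 2 was exponential growth and day 5 early stationary phase. The 6 arrays of day 10 (late stationary phase) entered the fit for its estimate of the spread, and their levels give a later measurement. The labels call the 3 samples of a group biological replicates. The p-values measure the spread between such replicates, pooled over the 6 groups of days 2, 5 and 10. They say nothing of other tanks, musts or strains.

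Wine yeast passes within days through growth on plentiful sugar and nitrogen, exhaustion of nitrogen and of oxygen, and a long non-growing phase in rising ethanol. Growing cells devote much of their transcription to ribosome assembly, cell wall synthesis and division, while sterol synthesis, respiration and the haem-dependent regulators respond to oxygen, which yeast needs to make sterols and unsaturated fatty acids. Vessel size alters mixing, settling of cells, gas exchange and temperature gradients, so the same day number need not be the same physiological moment at both scales. The interaction is arithmetically also the tank minus vial gap on day 5 less that gap on day 2, and both readings are given.

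Between 5357 and 5387 of the genes stood above background on each of the 12 arrays, background being the 95th percentile of the mean of 1746 S. pombe probe sets on the same arrays, at log2 4.40. Within each of the 4 groups the lowest correlation between arrays was 0.990 to 0.995. Of 7 growth markers, 1 rose and 3 fell in tanks, and 3 rose and 1 fell in vials. Of 9 stationary-phase markers, 2 rose and 3 fell in tanks, and 3 rose and 3 fell in vials, so neither list moved uniformly in the direction of its label at either scale. The 3′ minus 5′ signal of 8 control genes, a sign of RNA integrity and amplification, averaged 1.15 ± 0.09 in tanks on day 5 and 0.83 ± 0.06 on day 2, and 1.46 ± 0.07 in vials on day 5 and 1.00 ± 0.03 on day 2 (log2, SD, n = 3 each). Its part in the results was not tested. RNA came from whole cell samples, so fewer cells of a kind and less RNA per cell cannot be told apart.

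More genes were called for a change in tanks than in vials, except when array weights were used in the fit. In tanks 3996 genes (73.3%) were called, 1864 (34.2%) higher and 2132 (39.1%) lower on day 5. In vials 3684 (67.6%) were called, 1442 (26.5%) higher and 2242 (41.1%) lower. With array weights the order was the reverse, with 4161 genes called in tanks and 4378 in vials. The interaction was positive for 1794 genes (32.9%), which rose more or fell less in tanks, and negative for 1410 (25.9%). Over all genes the median interaction was 0.08 and the median of its size 0.54 log2 units, and 1177 called genes reached a 2-fold difference between the changes. The split of positive against negative calls depended on scaling: 56.0% of called genes were positive as deposited, 51.4% with each array centred on its median and 49.7% with quantile normalization repeated. Genes nearest the threshold were WHI3 on the called side (interaction -0.39, limma adjusted p = 0.0497) and FET3 beyond it (interaction 0.60, limma adjusted p = 0.0507).

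Of the 3204 genes, 489 moved in opposite directions (8.97% of those tested), 894 changed in tanks only (16.4%), 633 in vials only (11.6%) and 1142 the same way by different amounts (21.0%). The remaining 46 had a called interaction but neither change called alone. The median size of the interaction was 1.28 log2 units in the opposite class, 0.83 in tanks only, 0.82 in vials only and 0.71 in the same-direction class. The plot of the tank change against the vial change sets these classes out.

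**Figure D1:**
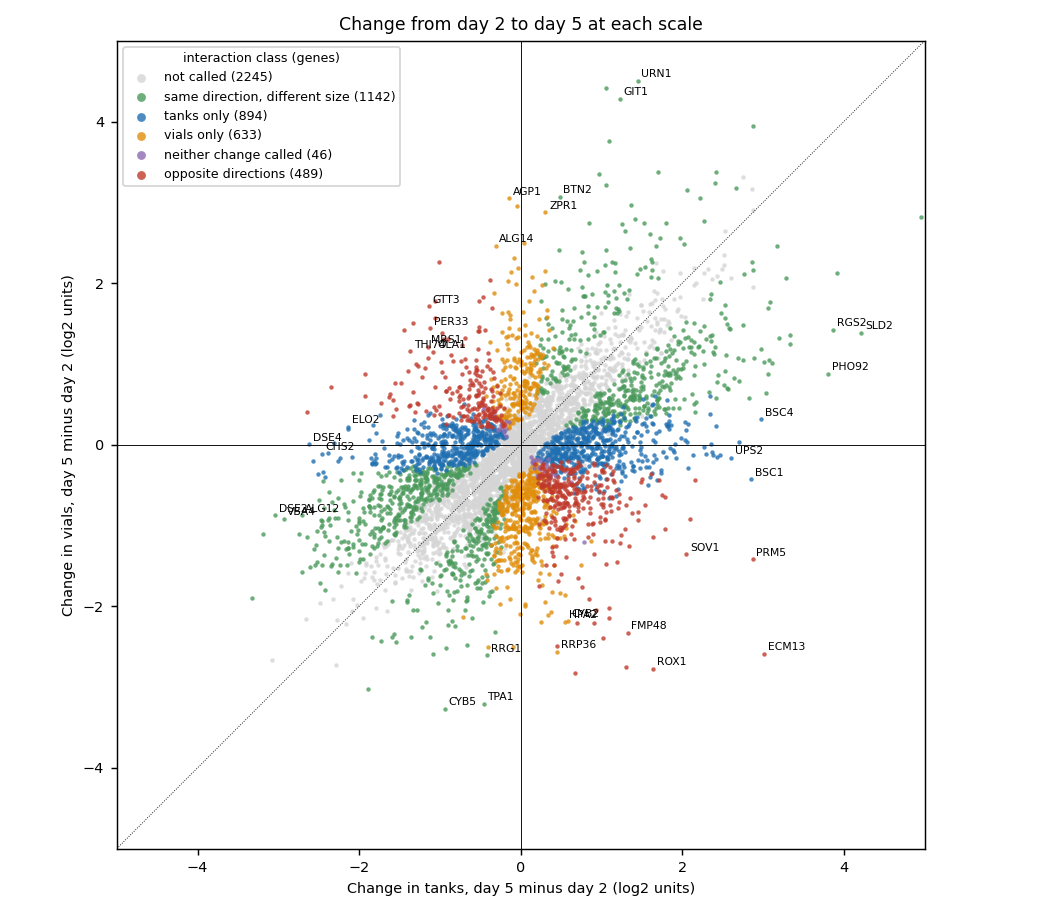
Change from day 2 to day 5 in tanks (horizontal axis, log2 units) against that in vials (vertical axis) for each of the 5449 genes, coloured by class. The 34 genes named from the classes are labelled, and those named only from gene lists are not. The dotted line marks equal change; the 489 genes that moved in opposite directions lie in the lower right (297) and upper left (192) quadrants.

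Among the 489 genes with opposite changes, 297 rose in tanks and fell in vials and 192 fell in tanks and rose in vials. For 459 of them the arrays of the 2 days did not overlap at either scale, a state also found in 60.5% of all genes tested. The class required both changes to be called on these arrays, so a high share followed from the sorting. Both changes reached 2-fold for 31 genes, 19 of the first kind and 12 of the second. The genes with the largest smaller change were ECM13, ROX1, PRM5, SOV1 and FMP48 in the first kind and THI74, MRS1, GTT3, PER33 and OLA1 in the second.

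ECM13 (YBL043W), a protein of unknown function named from a screen of cell wall mutants, had log2 intensities of 11.00, 11.05 and 10.87 in tanks on day 5, against 8.40, 8.68 and 6.79 in tanks on day 2. In vials it had 10.59, 10.86 and 10.78 on day 5, against 13.36, 13.31 and 13.33 on day 2. The days did not overlap at either scale, and the gap between the scales (tanks minus vials) was 0.23 on day 5, which was not called, against -5.37 on day 2. The change was 3.02 ± 0.32 in tanks and -2.59 ± 0.32 in vials, and the interaction of 5.61 ± 0.46 was the largest of all genes (SE, limma adjusted p = 8.2e-08). On day 2 the third tank array lay well below the other two, which widens the spread of that group.

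ROX1 (YPR065W) encodes the haem-dependent repressor of hypoxic genes, which is made when oxygen is present. It had 7.45, 8.05 and 7.50 in tanks on day 5, against 6.52, 6.40 and 5.17 in tanks on day 2. In vials it had 10.51, 10.09 and 10.60 on day 5, against 13.14, 13.27 and 13.11 on day 2. ROX1 was lower in tanks on both days, without overlap, and the gap narrowed to -2.73 on day 5, against -7.14 on day 2. On day 10 it was still lower in tanks, by -1.47 log2 units (limma adjusted p = 0.0016), with means of 12.07 in tanks and 13.54 in vials. The interaction was 4.41 ± 0.48 (limma adjusted p = 1.8e-06).

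PRM5 (YIL117C), a membrane protein gene induced by pheromone and by cell integrity signalling, had 9.65, 9.68 and 9.68 in tanks on day 5, against 6.77, 7.01 and 6.60 in tanks on day 2. Vials gave 8.73, 8.73 and 8.99 on day 5, against 10.32, 9.95 and 10.43 on day 2. Here the order of the scales turned over: vials were higher on day 2 and tanks on day 5, and tanks stayed 1.17 log2 units above vials on day 10 (limma adjusted p = 2.9e-06).

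SOV1 (YMR066W), a mitochondrial protein required for respiration, had 10.05, 9.87 and 10.34 in tanks on day 5, against 7.96, 8.11 and 8.05 in tanks on day 2. In vials it had 7.15, 7.30 and 6.95 on day 5, against 8.53, 8.41 and 8.52 on day 2. The scales diverged, by -0.45 on day 2, 2.95 on day 5 and 3.64 on day 10 (tanks minus vials). FMP48 (YGR052W), a putative mitochondrial protein kinase, had 11.19, 11.31 and 11.13 in tanks on day 5, against 9.93, 10.01 and 9.73 on day 2. Its vial arrays gave 10.98, 11.35 and 11.20 on day 5, against 13.46, 13.57 and 13.50 on day 2. The day 5 arrays of the scales overlapped, and on day 2 the gap was -3.62 log2 units.

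The 5 genes named of the second kind had interactions of -2.23 to -2.85; over all members the median was -1.27 for the second kind and 1.29 for the first. THI74 (YDR438W), a mitochondrial membrane protein repressed by thiamine, had 10.24, 10.01 and 9.76 in tanks on day 5, against 11.09, 11.49 and 11.54 in tanks on day 2. In vials it had 10.43, 10.50 and 10.49 on day 5, against 9.28, 9.35 and 9.31 on day 2. The 2 days were apart at both scales, and the order of the scales turned over between them.

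MRS1 (YIR021W), which serves the splicing of mitochondrial introns, had 9.55, 9.11 and 9.52 in tanks on day 5, against 10.57, 10.35 and 10.70 on day 2, and 10.26, 10.20 and 10.50 in vials on day 5, against 8.99, 9.07 and 9.25 on day 2. GTT3 (YEL017W), a protein linked to glutathione metabolism, had 9.50, 9.57 and 9.11 in tanks on day 5, against 10.21, 10.61 and 10.76 on day 2, and 9.87, 10.04 and 10.01 in vials on day 5, against 8.23, 8.25 and 8.32 on day 2. Both were higher in tanks on day 2 and in vials on day 5, with no overlap on either day.

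PER33 (YLR064W), a membrane protein of the endoplasmic reticulum and nuclear pore, had 11.41, 11.36 and 11.12 in tanks on day 5, against 12.33, 12.52 and 12.41 on day 2, and 12.24, 11.77 and 12.28 in vials on day 5, against 10.63, 10.69 and 10.65 on day 2. OLA1 (YBR025C), an ATPase of the Obg family, had 12.02, 11.96 and 11.85 in tanks on day 5, against 12.92, 12.97 and 13.19 on day 2, and 13.70, 13.62 and 13.69 in vials on day 5, against 12.47, 12.38 and 12.72 on day 2. These turned over as well, and on day 10 both were lower in tanks than in vials, by -1.92 for PER33 and -2.07 for OLA1 (limma adjusted p = 3.4e-09 and 6.1e-10).

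**Figure D2:**
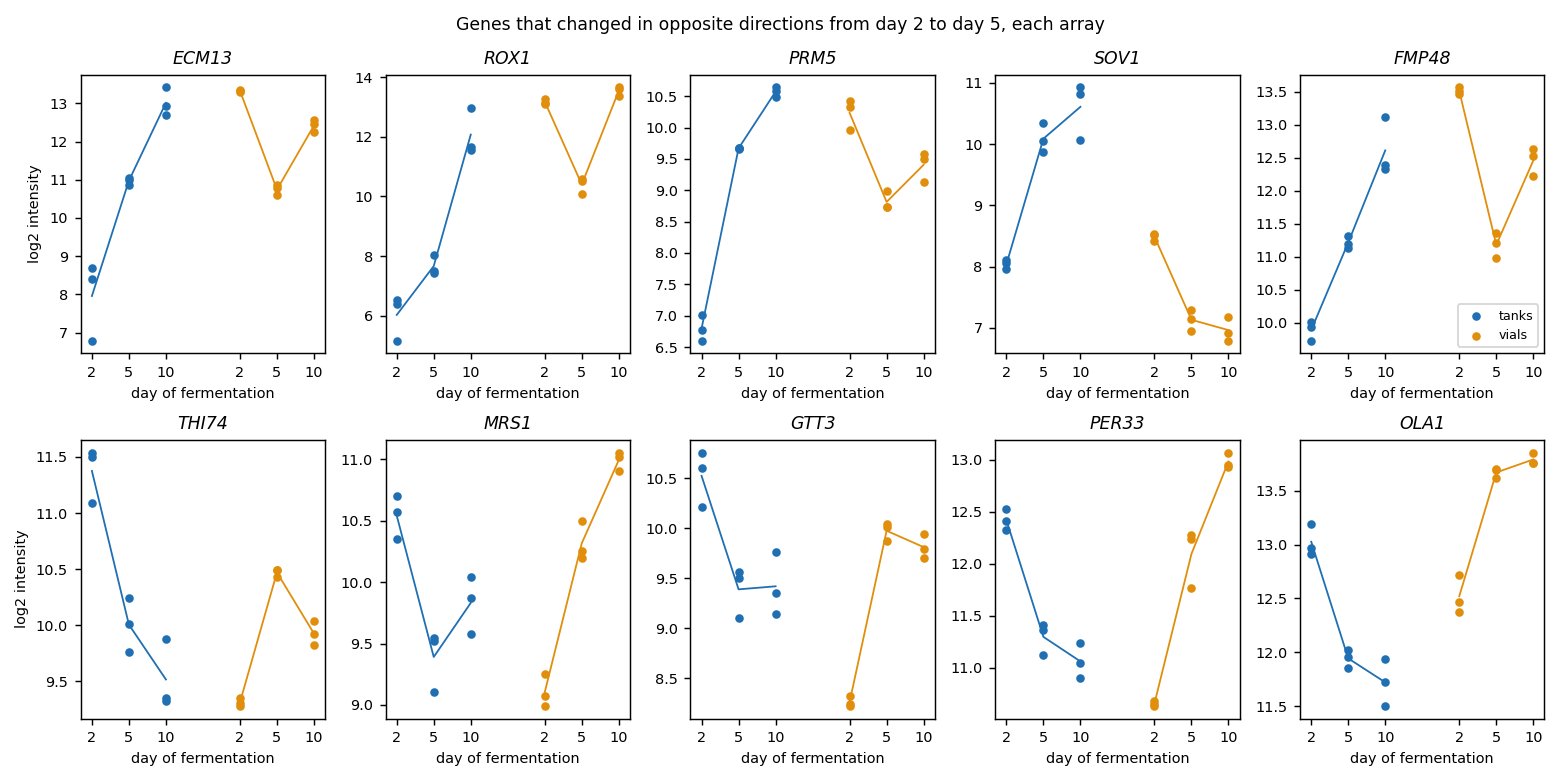
Log2 intensity of the 10 genes with the largest opposite changes on each array, tanks on the left (blue) and vials on the right (orange) of each panel, by day of fermentation; points are arrays and lines join the group means of 3. The upper row rose in tanks and fell in vials from day 2 to day 5 (ECM13 3.02 and -2.59), the lower row did the reverse (GTT3 -1.13 and 1.71).

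Read as a gap between the scales, most of the called interactions were a difference of day 2 that became smaller. On day 2, 77.3% of all genes were called between tanks and vials, and on day 5, 61.9%. Of the 3204 genes, 1165 (36.4%) had a gap on day 2 only and are called closed. A further 904 (28.2%) had the same sign on both days with a smaller gap on day 5. The order of the scales turned over for 454, a gap was called on day 5 only for 460, and it was wider on day 5 for 186. Neither day was called alone for 35. Since the interaction chose these genes and equals the difference of the gaps, the counts describe the members and carry no test.

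The opposite class held 180 closed, 108 narrowed, 145 turned, 41 opened and 15 widened gaps. Genes that rose in tanks and fell in vials had median gaps (tanks minus vials) of -1.19 on day 2, 0.09 on day 5 and 0.12 on day 10. Genes with the reverse pattern had 1.09, -0.19 and -0.20 on those days. The levels of day 10 entered none of the contrasts that sorted the genes, but its arrays share in the estimate of the spread, and without them 3366 interactions and 598 opposite changes were called. On day 10, 119 of the 297 were called higher and 71 lower in tanks, and 36 of the 192 were called higher and 85 lower. Over all genes 3196 (58.7%) were called on day 10, 1759 (32.3%) higher and 1437 (26.4%) lower in tanks.

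**Figure D3:**
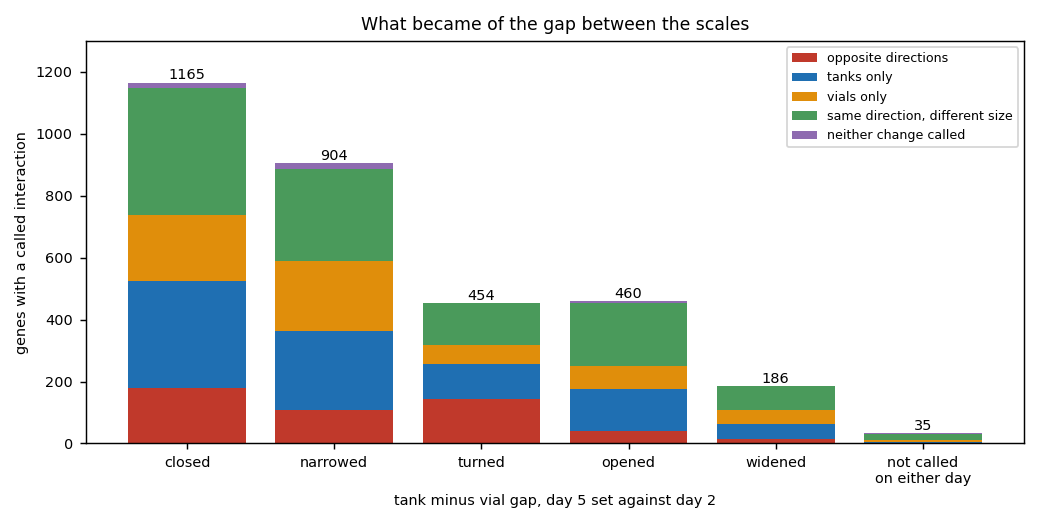
Number of genes with a called interaction (vertical axis) by what became of the tank minus vial gap on day 5 set against day 2, stacked by class; the total stands above each bar. Closed (1165) and narrowed (904) gaps outnumber turned (454), opened (460) and widened (186) ones.

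Of the 894 genes that changed in tanks only, 486 rose and 408 fell. A change that was not called need not be absent. The 95% interval of the vial change lay within 1 log2 unit of 0 for 459 of the 486 and 407 of the 408. That margin is wider than the median tank changes of 0.85 and -0.81, so it leaves room for a vial change of that size. Vial arrays of the 2 days did not overlap for 311 of the 894 (34.8%), beside 76.9% of all genes. The class required that the vial change was not called, so a low share followed from the sorting and is no test. BSC1, UPS2 and BSC4 led the genes that rose, and DSE4, ELO2 and CHS2 those that fell.

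UPS2, a mitochondrial protein that serves phosphatidylethanolamine synthesis, had 10.93, 11.29 and 11.49 in tanks on day 5, against 8.73, 8.68 and 8.48 on day 2. Vials gave 12.97, 13.12 and 13.12 on day 5, against 13.27, 13.18 and 13.24 on day 2. Tanks thus moved towards a level that vials had on both days, and the interaction was 2.77 ± 0.20 (limma adjusted p = 2.5e-08). BSC4, named for readthrough of its stop codon, changed by 2.98 ± 0.20 in tanks and 0.31 ± 0.20 in vials. BSC1, another gene of stop codon readthrough, had 6.70, 6.64 and 6.30 in tanks on day 5 and lay at or below background on all 3 tank arrays of day 2, so it was at least 4.44-fold higher on day 5. Its vial change was -0.43 ± 0.22.

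DSE4, a glucanase secreted by daughter cells to separate from the mother, had 8.43, 8.17 and 7.99 in tanks on day 5, against 10.62, 10.89 and 10.94 on day 2. In vials it had 8.43, 8.40 and 8.12 on day 5, against 8.47, 8.12 and 8.35 on day 2. Tanks on day 2 stood apart from the other 3 groups, which overlapped. CHS2, the chitin synthase of the division septum, had the same shape, with 7.35, 7.03 and 7.17 in tanks on day 5, against 9.34, 9.53 and 10.07 on day 2, and a vial change of -0.11 ± 0.17. ELO2, a fatty acid elongase for sphingolipids, fell by 2.14 ± 0.20 in tanks, and its vial change was 0.22 ± 0.20.

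Of the 633 genes that changed in vials only, 409 fell and 224 rose. The tank change had an interval within 1 log2 unit of 0 for 394 and 223 of them. That margin is again wider than the median vial changes of -0.80 and 0.76. Tank arrays of the 2 days did not overlap for 118 of the 633 (18.6%), beside 76.6% of all genes. Here too the sorting fixed a low share, since the tank change had to be uncalled. AGP1, a permease of broad amino acid range, had 13.45, 13.53 and 13.66 in vials on day 5, against 10.42, 10.39 and 10.70 on day 2. In tanks it had 14.16, 14.15 and 13.98 on day 5, against 14.38, 14.25 and 14.08 on day 2. The tank arrays of the 2 days overlapped, vials were the lower scale on both days, and the interaction was -3.19 ± 0.19 (limma adjusted p = 2.9e-09). ALG14, of N-glycan synthesis, changed by -0.31 ± 0.15 in tanks and 2.46 ± 0.15 in vials. ZPR1, a zinc finger protein that helps assemble a translation elongation factor, changed by 0.31 ± 0.14 in tanks and 2.88 ± 0.14 in vials.

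The genes that fell in vials only were led by RRP36, CYB2 and HPA2. CYB2, the L-lactate cytochrome c oxidoreductase of mitochondria, had 10.33, 10.18 and 10.14 in vials on day 5, against 12.34, 12.29 and 12.56 on day 2, and 7.15, 7.25 and 6.60 in tanks on day 5, against 6.48, 6.60 and 6.17 on day 2. It was lower in tanks on both days, without overlap. RRP36, a ribosomal RNA processing factor, fell by 2.56 ± 0.48 in vials; its tank arrays lay near background, 1 of those of day 2 at or below it. HPA2, a member of the acetyltransferase family, fell by 2.19 ± 0.30 in vials.

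In the same-direction class, 402 genes fell more in tanks, 340 rose more in tanks, 234 fell more in vials and 166 rose more in vials. Of those that rose more in tanks, RGS2, a regulator of the glucose-sensing G protein, had 11.87, 12.23 and 11.90 in tanks on day 5, against 8.01, 8.41 and 7.98 on day 2, and 10.98, 11.34 and 11.32 in vials on day 5, against 9.70, 9.59 and 10.09 on day 2. PHO92, which binds methylated messenger RNA, rose by 3.81 ± 0.21 in tanks and 0.87 ± 0.21 in vials. SLD2, of replication initiation, rose by 4.22 ± 0.25 in tanks and 1.38 ± 0.25 in vials. For these 3 genes tanks lay below vials on day 2 and above them on day 5.

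URN1, GIT1 and BTN2 rose more in vials. URN1, a splicing factor, had 9.03, 9.39 and 9.33 in tanks on day 5, against 7.89, 7.77 and 7.74 on day 2, and 12.29, 12.57 and 12.81 in vials on day 5, against 7.97, 8.03 and 8.15 on day 2. Its gap (tanks minus vials) was -0.25 on day 2, -3.31 on day 5 and -2.99 on day 10, with vials higher. GIT1, the permease of glycerophosphoinositol, rose by 1.23 ± 0.14 in tanks and 4.28 ± 0.14 in vials. BTN2, which sorts misfolded proteins, rose by 0.48 ± 0.19 in tanks and 3.07 ± 0.19 in vials, and its gap reached -4.58 on day 10.

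Among genes that fell at both scales, TPA1, a dioxygenase that uses oxygen and acts in translation termination, had 9.63, 9.29 and 9.48 in tanks on day 5, against 9.99, 9.85 and 9.94 on day 2, and 9.67, 9.39 and 9.35 in vials on day 5, against 12.63, 12.63 and 12.75 on day 2. CYB5, the cytochrome of sterol and lipid synthesis, fell by 0.94 ± 0.19 in tanks and by 3.27 ± 0.19 in vials. RRG1, needed for respiratory growth, fell by 0.41 ± 0.16 in tanks and by 2.61 ± 0.16 in vials. The reverse held for DSE2, a wall-degrading protein of daughter cells, which fell by 3.04 ± 0.16 in tanks and by 0.87 ± 0.16 in vials. VBA4, of a family of vacuolar amino acid transporters, fell by 2.94 ± 0.19 in tanks and by 0.92 ± 0.19 in vials, and ALG12, a mannosyltransferase of N-glycan synthesis, fell by 2.71 ± 0.18 in tanks and by 0.88 ± 0.18 in vials.

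The genes were also described by 48 lists of pathways and complexes, holding 1420 of the 5449 genes. Each list is given by its called counts and medians, beside 32.9% positive calls, 25.9% negative calls and a median interaction of 0.08 over all genes. No list was tested as a set. Every list median given below kept its sign with arrays centred on their medians and with quantile normalization repeated, and among the 48 that of fatty acid and phospholipid synthesis alone did not. Where leaving out 1 array moved a printed count of 3 or more by over 1.5 times, the values stand beside it; counts under 3 on one side of a list moved by at most 3 genes.

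**Figure D4:**
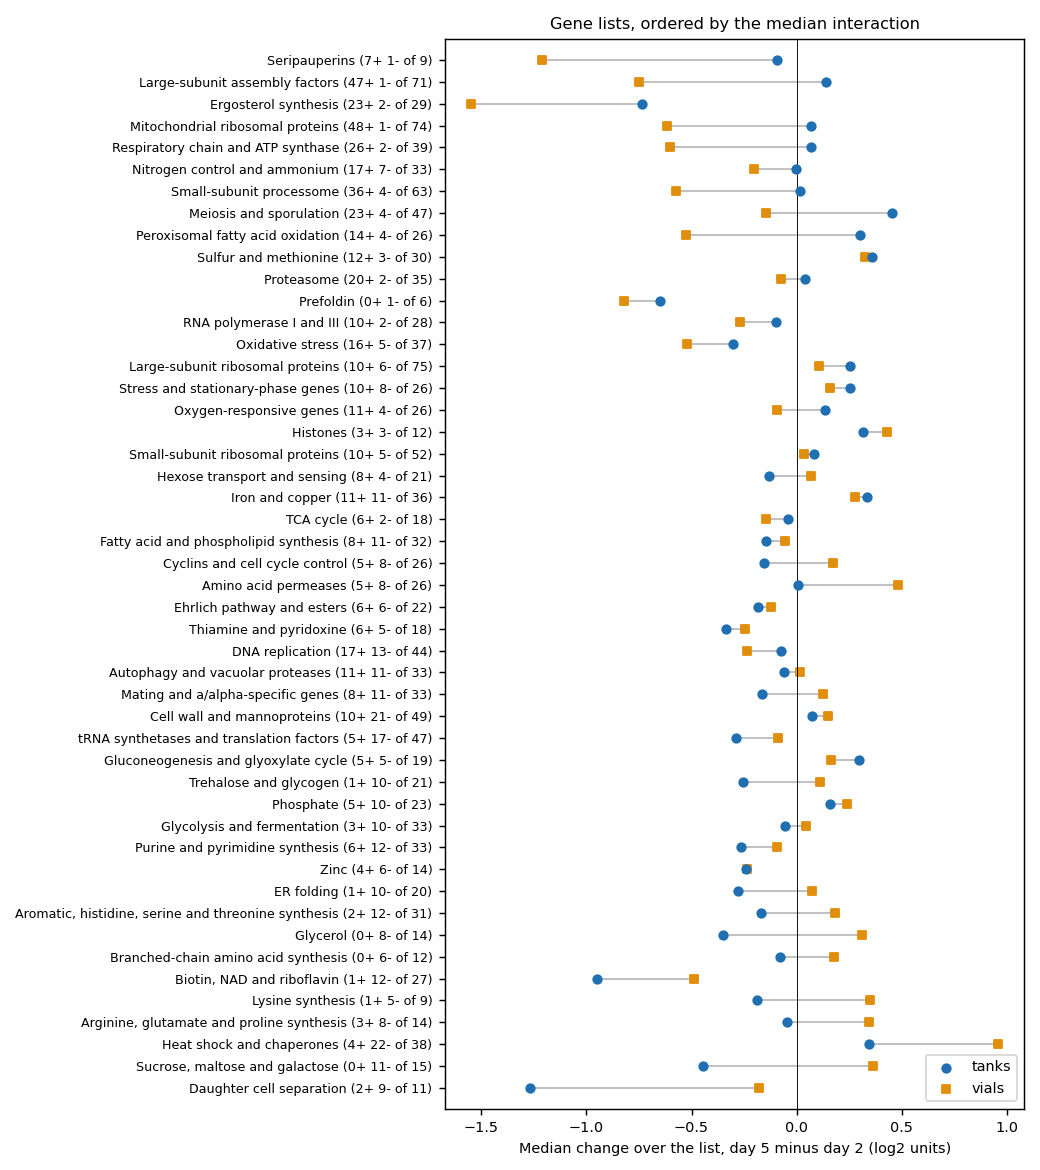
Median change from day 2 to day 5 (horizontal axis, log2 units) over each of 48 gene lists, in tanks (blue circles) and vials (orange squares), ordered from the highest median interaction at the top; the labels give the positive and negative interaction calls out of the genes measured. The widest separations with tanks higher include large-subunit assembly factors (0.14 in tanks, -0.75 in vials), and with tanks lower daughter cell separation (-1.27 in tanks, -0.18 in vials).

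Factors that build ribosomes mostly fell in vials and were divided in tanks. Of 71 large-subunit assembly factors, 47 had a positive and 1 a negative interaction, with a median of 0.85. In tanks 24 rose and 19 fell (median 0.14), and in vials 4 rose and 52 fell (median -0.75). Of 63 genes of the small-subunit processome, 36 were positive and 4 negative (median 0.61), with 21 up and 16 down in tanks and 3 up and 39 down in vials. Both lists were lower in tanks on day 2, with median gaps of -1.35 and -1.15, and less so on day 5, with -0.55 and -0.52.

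FCF2, a nucleolar factor of the processome, had 7.93, 8.05 and 8.71 in tanks on day 5, against 6.96, 7.22 and 6.95 on day 2, and 9.68, 9.55 and 9.48 in vials on day 5, against 11.09, 10.98 and 10.99 on day 2. BFR2, also of the processome, rose by 0.76 in tanks and fell by 1.77 in vials. NOP16, of large-subunit assembly, rose by 2.46 ± 0.38 in tanks, and its vial change was -0.12 ± 0.38. CGR1, a nucleolar factor, was at or below background on every tank array of days 2 and 5, so its tank change has no value; it was at least 22.7-fold lower in tanks than in vials on day 2 and at least 6.27-fold lower on day 5. MRT4, which acts in large-subunit assembly, was the exception with a negative interaction (-1.43), rising by 0.73 in tanks and 2.16 in vials. Of the ribosomal proteins themselves, 10 positive and 6 negative of 75 were called in the large subunit (21.3%) and 10 positive and 5 negative of 52 in the small subunit (28.9%), beside 58.8% of all genes. The balance of these calls moved with single arrays: without replicate 3 of tanks on day 2 the large subunit had 15 positive and 3 negative, without replicate 3 of vials on day 5 it had 6 and 14, and with each array left out in turn the positive calls numbered 6 to 15 and the negative 1 to 14. In the small subunit they numbered 6 to 14 and 3 to 8, highest without those same arrays. Some of these probe sets match near-identical gene copies and cannot tell them apart.

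Called interactions of mitochondrial genes were mostly positive. Of 74 mitochondrial ribosomal proteins, 48 were positive and 1 negative (median 0.65; tanks 0.07, vials -0.62). In the respiratory chain and ATP synthase, 26 of 39 members were positive and 2 negative (median 0.65), with 17 up and 9 down in tanks and 3 up and 24 down in vials. QCR6, a subunit of the cytochrome bc1 complex, had 11.88, 12.30 and 12.71 in tanks on day 5, against 10.11, 10.01 and 9.65 on day 2, and 13.33, 13.35 and 13.50 in vials on day 5, against 13.49, 13.55 and 13.44 on day 2. CYC1, the main cytochrome c, rose by 1.24 ± 0.28 in tanks and fell by 1.12 ± 0.28 in vials. RSM28, of the small mitochondrial ribosomal subunit, rose by 1.34 in tanks and fell by 1.25 in vials. All 3 remained lower in tanks than in vials on day 5, as on day 2. The TCA cycle had 6 positive and 2 negative of 18.

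Most genes of sterol synthesis fell at both scales. Of 29 genes, 23 fell in tanks and 27 in vials, and 23 had a positive and 2 a negative interaction (median 0.71; tanks -0.74, vials -1.55). IDI1, the isopentenyl diphosphate isomerase, rose in tanks instead: it had 11.12, 11.39 and 11.41 on day 5, against 10.78, 10.42 and 10.64 on day 2, while vials had 11.63, 11.60 and 11.40 on day 5, against 13.75, 13.77 and 13.72 on day 2. HMG1, the reductase that commits carbon to sterols, fell by 2.50 ± 0.20 in vials, and its tank change was -0.40 ± 0.20. The list's median gap was -0.64 on day 2, 0.09 on day 5 and 0.03 on day 10.

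Of 26 genes that respond to oxygen, 11 were positive and 4 negative (median 0.15, and 0.08 with arrays centred), so the list was mixed. MOT3, which represses hypoxic genes with ROX1, rose by 0.94 in tanks and fell by 2.05 in vials. AAC3, ANB1 and SUT1, which are derepressed without oxygen, fell in tanks, by 1.40, 0.74 and 0.89, and their vial changes were 0.08, -0.03 and 0.24. Of 9 seripauperins, anaerobically induced wall proteins, 7 were positive and 1 negative (median 1.15; tanks -0.10, vials -1.21), but 8 share probe sets with near-identical copies and cannot be told apart.

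Called interactions of chaperones were mostly negative. Of 38 heat shock and chaperone genes, 22 had a negative and 4 a positive interaction (median -0.57), with 21 up and 8 down in tanks and 27 up and 4 down in vials, at medians of 0.34 and 0.96. HSP82, the inducible Hsp90, had 11.08, 11.16 and 11.39 in tanks on day 5, against 12.26, 12.36 and 12.21 on day 2, and 13.84, 13.88 and 13.89 in vials on day 5, against 12.18, 12.28 and 12.43 on day 2. The day 2 arrays of the scales overlapped and the day 5 arrays did not. SSA4, an inducible Hsp70, fell by 0.52 in tanks and rose by 1.78 in vials. HSF1, the factor that drives these genes, rose at both scales, by 1.80 in tanks and 0.74 in vials. The list's median gap was -0.47, -0.76 and -0.88 on days 2, 5 and 10. For the proteasome, 20 of 35 genes were positive and 2 negative (median 0.38), and RPN4, its transcriptional activator, rose by 1.70 in tanks and 0.64 in vials. In folding in the endoplasmic reticulum 1 of 20 was positive and 10 negative.

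**Figure D5:**
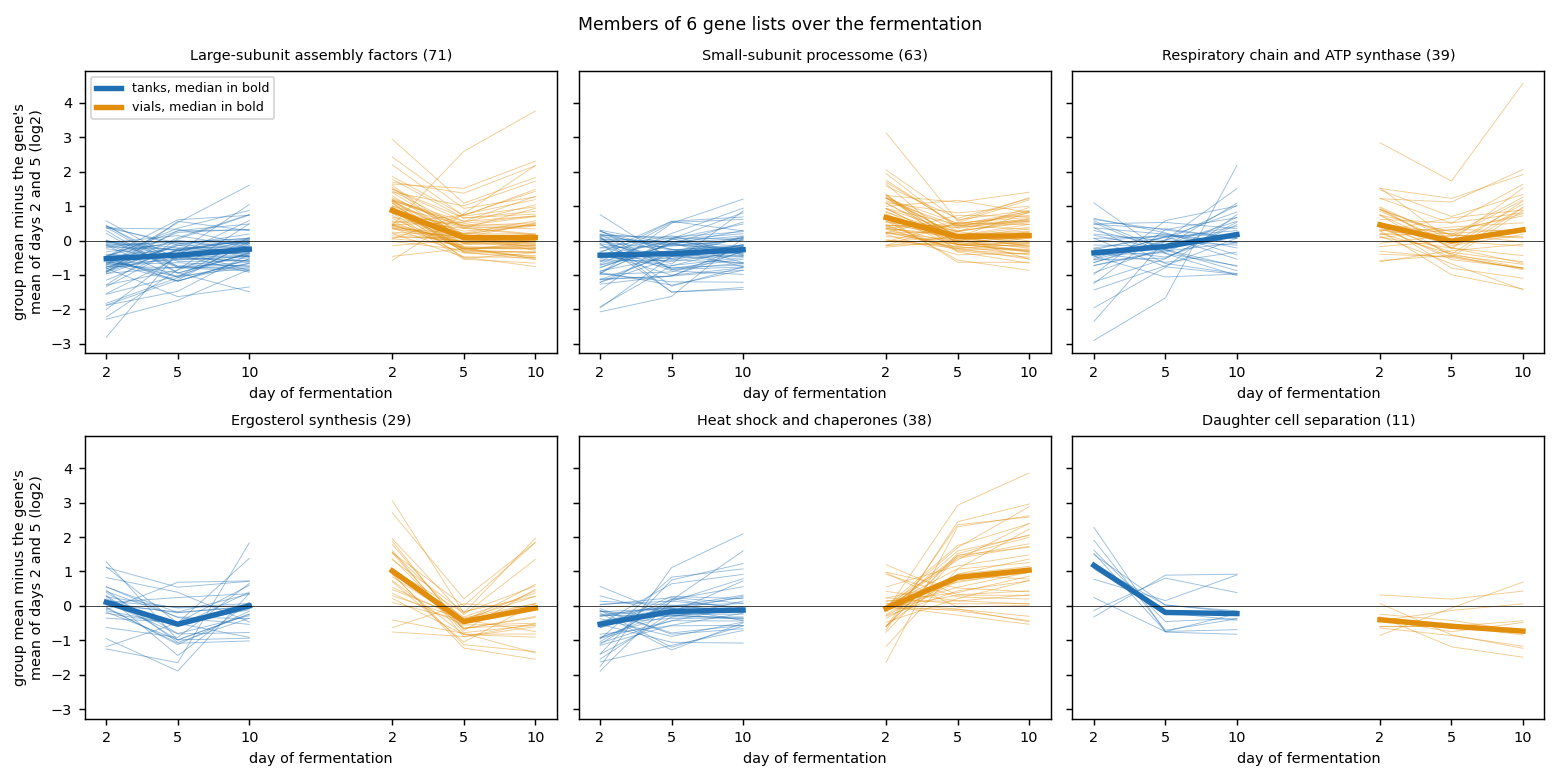
Course of the members of 6 gene lists over days 2, 5 and 10, tanks on the left (blue) and vials on the right (orange) of each panel; thin lines are genes, each as its group mean of 3 arrays minus its mean over the 4 groups of days 2 and 5 (log2 units), and bold lines the medians. In vials the ribosome assembly, respiratory and ergosterol medians drop from day 2 to day 5 and the chaperone median rises. In tanks the median change was -0.74 for ergosterol synthesis, 0.34 for chaperones and -1.27 for daughter cell separation.

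Of 15 genes for sucrose, maltose and galactose use, 11 had a negative interaction and none a positive one, with a median change of -0.44 in tanks and 0.36 in vials. SUC2, invertase, had 10.16, 10.20 and 9.70 in tanks on day 5, against 11.54, 11.80 and 11.97 on day 2, and 9.61, 9.77 and 9.57 in vials on day 5, against 9.25, 9.29 and 9.32 on day 2. MAL33, an activator of maltose genes, fell by 1.06 in tanks and rose by 1.78 in vials. Of 21 hexose transporters and sensors, 8 were positive and 4 negative (2 negative without replicate 3 of tanks on day 5 or replicate 1 of vials on day 2); MIG1, the glucose repressor, rose by 1.25 in tanks, and its vial change was -0.35. Trehalose and glycogen genes had 1 positive and 10 negative of 21, among them GSY1, a glycogen synthase, which fell by 1.49 in tanks and rose by 0.76 in vials. Of 14 glycerol genes 8 were negative and none positive.

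In glycolysis and fermentation 3 of 33 genes were positive and 10 negative. ADH2, the ethanol-consuming alcohol dehydrogenase, rose by 1.99 ± 0.15 in vials, and its tank change was -0.05 ± 0.15. ADR1, the activator of ADH2 and of peroxisomal genes, rose by 0.97 in tanks and 3.35 in vials. Of 26 genes of peroxisomal fatty acid oxidation, 14 were positive and 4 negative (median 0.49; tanks 0.30, vials -0.53), or 2 negative without any 1 of 5 arrays (replicate 2 of each group but tanks on day 5, replicate 3 of tanks on day 5 and replicate 1 of vials on day 2), with FAA1, a fatty acyl-CoA synthetase, falling by 1.49 in vials beside a tank change of 0.26.

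Nitrogen control had 17 positive and 7 negative of 33 (median 0.62). DUR3, the urea and polyamine permease, had 10.29, 10.13 and 9.94 in tanks on day 5, against 9.31, 9.47 and 8.91 on day 2, and 10.06, 9.99 and 10.32 in vials on day 5, against 11.13, 10.47 and 11.69 on day 2. PUT4, the proline permease, rose by 1.53 in tanks, and its vial change was -0.14. CAR1, arginase, rose by 1.02 in tanks and fell by 0.60 in vials. MEP3, an ammonium permease, rose by 1.34 in vials, and its tank change was -0.16. UGA1 and GDH1, enzymes of glutamate metabolism, fell in tanks by 1.64 and 1.68, and their vial changes were -0.20 and -0.27.

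Called interactions in the synthesis of amino acids were mostly negative: 8 negative and 3 positive of 14 for arginine, glutamate and proline (1 positive without replicate 1 of tanks on day 5 or of vials on day 2, and under both scalings), 5 and 1 of 9 for lysine (2 and 1 without replicate 2 of vials on day 2 or replicate 1 of vials on day 5, 7 and 1 without replicate 3 of vials on either day), 6 and 0 of 12 for branched chains, and 12 and 2 of 31 for aromatic residues, histidine, serine and threonine. LEU2, of leucine synthesis, fell by 1.35 in tanks beside a vial change of -0.20, and ARG3, of arginine synthesis, rose by 1.64 in vials beside a tank change of 0.03. Sulfur and methionine genes had 12 positive and 3 negative of 30, with MET4, their activator, up by 2.57 in tanks and 0.69 in vials. Of 22 genes of the Ehrlich pathway and esters, which give higher alcohols and acetate esters, 6 were positive and 6 negative. ARO10, a decarboxylase of that pathway, rose at both scales with the largest tank change of all genes: 12.78, 12.75 and 12.80 in tanks on day 5, against 7.71, 7.89 and 7.89 on day 2, and 10.71, 10.63 and 10.88 in vials on day 5, against 7.87, 7.93 and 7.98 on day 2. ATF1, the main alcohol acetyltransferase, fell by 1.07 in tanks and by 0.41 in vials.

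All 11 genes of daughter cell separation had a called interaction, 9 negative and 2 positive, with a median of -1.25. In tanks 9 fell and 2 rose, and in vials 3 fell and 1 rose. EGT2, a wall hydrolase, fell by 2.07 in tanks and by 0.35 in vials. ASH1, the daughter-specific repressor, was one of those that rose in tanks, by 0.94. Their median gap was 1.63 on day 2, 0.34 on day 5 and 0.54 on day 10. Cell wall and mannoprotein genes had 10 positive and 21 negative of 49; RLM1, the cell integrity transcription factor, rose by 3.34 in tanks and 1.24 in vials, and SUN4, a glucanase-like wall protein, fell by 1.58 in tanks and rose by 0.55 in vials.

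Cyclins and cell cycle regulators were mixed, with 5 positive (3 with quantile normalization repeated) and 8 negative of 26. CLB1, a mitotic cyclin, had 7.89, 7.61 and 7.68 in tanks on day 5, against 10.35, 10.30 and 10.46 on day 2, and 8.72, 8.43 and 8.02 in vials on day 5, against 7.94, 7.92 and 8.11 on day 2. CLN1, a cyclin of the start of the cycle, fell by 0.76 in tanks and rose by 0.71 in vials, and CLB5, of replication, did the reverse, with 0.60 and -0.82. DNA replication had 17 positive and 13 negative of 44, with SLD3, an initiation factor, up by 0.91 in tanks and down by 1.36 in vials.

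Of 47 meiosis and sporulation genes 23 were positive and 4 negative (median 0.56; tanks 0.45, vials -0.15). With quantile normalization repeated, 18 were positive and 5 negative, with a median of 0.25. SMK1, a kinase of spore wall formation, had 8.78, 8.53 and 8.15 in tanks on day 5, against 6.08, 6.23 and 6.26 on day 2, and 5.63, 6.11 and 5.56 in vials on day 5, against 5.89, 5.77 and 6.02 on day 2. Of 8 markers of sporulating cells, 5 rose and 1 fell in tanks, and 3 rose and 3 fell in vials. SPS2, a sporulation-specific gene, is among the 5 but lay at or below background on all 12 arrays of days 2 and 5, so its change has no value. Mating genes had 8 positive and 11 negative of 33. All 6 markers of MATa cells had a negative interaction: 1 rose and 5 fell in tanks, and 2 rose and 1 fell in vials. Of 4 markers of MATalpha cells 2 had a negative one: all 4 fell in tanks, and 1 fell and none rose in vials. MFA1, an a-factor precursor and the MATa marker that rose in tanks, rose by 2.22 in tanks and 3.06 in vials. STE2, the alpha-factor receptor of MATa cells, fell by 2.14 ± 0.16 in tanks, and its vial change was 0.20 ± 0.16. SAG1, the agglutinin of MATalpha cells, fell by 1.15 in tanks, and its vial change was 0.36. The mean log2 level over the 6 MATa markers was 7.26 to 7.44 in tanks on day 5, against 7.87 to 8.12 on day 2, and 7.61 to 7.85 in vials on day 5, against 7.10 to 7.22 on day 2. MFA1 had the largest vial change of the 6 and weighs on that mean. The median change over the 6 was -0.73 in tanks and 0.16 in vials. Over the 4 MATalpha markers the mean level was 7.4 to 7.9 in tanks on day 5, against 8.4 to 8.8 on day 2. In vials the MATalpha mean was 6.9 to 7.1 on day 5, against 7.2 to 7.3 on day 2. Over the 8 sporulation markers the mean level was 7.17 to 7.42 in tanks on day 5, against 6.72 to 6.95 on day 2, and 6.95 to 7.14 in vials on day 5, against 6.77 to 6.97 on day 2. The part of such cells in these results was not tested.

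Metal genes split in both directions. Of 36 genes of iron and copper, 11 were positive and 11 negative. CTR3, a high-affinity copper transporter, had 10.36, 10.21 and 10.13 in tanks on day 5, against 9.55, 9.65 and 9.47 on day 2, and 8.51, 9.08 and 8.53 in vials on day 5, against 11.48, 11.53 and 11.58 on day 2. HMX1, haem oxygenase, rose by 1.78 in tanks and fell by 0.65 in vials. SMF3, a vacuolar iron exporter, fell by 1.55 in tanks and rose by 0.76 in vials. Zinc genes had 4 positive and 6 negative of 14: ZAP1, the zinc-responsive activator, rose by 0.83 in tanks and fell by 1.14 in vials, while ZPS1, one of its targets, rose by 1.05 in tanks and 3.21 in vials. ZRT2, a zinc transporter, fell by 2.37 in tanks and by 0.59 in vials. Phosphate genes had 5 positive and 10 negative of 23.

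Biotin, NAD and riboflavin genes had 1 positive and 12 negative of 27, with BIO5, a transporter of a biotin precursor, down by 3.32 in tanks and by 1.90 in vials, and BPL1, the biotin ligase, down by 2.44 in tanks beside a vial change of -0.34. Thiamine and pyridoxine genes had 6 positive and 5 negative of 18, of which 3 share probe sets with near-identical copies. THI4, of thiamine synthesis, fell by 1.46 in tanks, and its vial change was 0.06. Among 26 stress and stationary-phase genes 10 were positive and 8 negative. SPG1 and SPG4, needed for survival in stationary phase, rose by 3.01 and 2.70 in tanks and by 1.02 and 0.79 in vials. They were the 2 of the 9 stationary-phase markers that rose in tanks, and 3 others fell there. HSP12, SNZ1 and SNO1 changed by -1.07, -0.62 and -0.915 in tanks and by -0.46, -0.32 and 0.10 in vials. In vials 3 of the 9 markers rose and 3 fell. Oxidative stress genes had 16 positive and 5 negative (8 with arrays centred) of 37.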

How the data were processed

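Each of the 18 samples gave 100 ng of total RNA for labelling, and 7.5 µg of amplified RNA went onto an Affymetrix array that holds probe sets for S. cerevisiae and S. pombe, per the labels' protocols. The authors summarised probe sets with RMA in the Affymetrix Expression Console, per the submitters' processing notes; versions were not among the details used here. The values are deposited as intensity on a linear scale, 4.92 to 39396 on the 12 arrays of days 2 and 5, and log2 was taken here. RMA includes quantile normalization, so levels are relative to the rest of the transcriptome.

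Of 10928 probe sets, 5498 were listed with 1 S. cerevisiae gene and stood for 5449 genes. For the 47 genes with several, the probe set with the highest mean was used; over these, the interaction differed in sign for 5 and by over 1 log2 unit for 4. The other 213 controls, 1746 S. pombe, 3470 unlisted probe sets and 1 listed with several genes entered no gene test. Genes were named from RefSeq tables; no genome was used.

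A model of 6 group means over 18 arrays was fitted with limma 3.58.1 in R 4.3.3, with empirical Bayes moderation and Benjamini-Hochberg adjustment over all 5449 genes. The code was also run on simulated arrays with independent noise, which checks the fitting and not the calls in these data. A gene at or below background on all 3 arrays of a group has a bound against the background level (intensity 21.1) in place of a fold. The number of arrays limits the precision. Genes described one by one were, per class and direction, the 5 (opposite directions, by the smaller change) or 3 (others, by the interaction) largest with a standard symbol, and from each list up to 3 called members per sign. Members and lists were chosen with earlier results of these data known. Whether the same vessel was sampled on each day is not given, and the samples were treated as unpaired. Correlations of same-numbered day 5 and day 2 deviations within a scale ranged from -0.268 to 0.221. With 3 arrays a group these cannot decide whether the samples were paired. Alternatives covered normalization, dim signals, probe set choice, prior, array weights, thresholds, replicate blocks and leaving out each array.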

Additional observations from a re-analysis of the deposited data

Results flagged for a closer look

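The change from day 2 to day 5 was flagged as different between tanks and vials, by the test of the difference itself in limma, for 3204 genes. Among the 34 genes described one by one from the classes, the interaction (tank change minus vial change, log2 units) for opposite changes with tanks up was 5.61 for ECM13, 4.41 for ROX1, 4.29 for PRM5, 3.40 for SOV1 and 3.66 for FMP48. With tanks down it was -2.53 for THI74, -2.36 for MRS1, -2.85 for GTT3, -2.56 for PER33 and -2.23 for OLA1.

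For genes called in tanks only it was 3.28 for BSC1, 2.77 for UPS2, 2.67 for BSC4, -2.62 for DSE4, -2.36 for ELO2 and -2.35 for CHS2. The value for BSC1 rests on a group at background and is no bound. For genes called in vials only it was -3.19 for AGP1, -2.77 for ALG14, -2.57 for ZPR1, 3.01 for RRP36, 2.76 for CYB2 and 2.74 for HPA2.

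In the same-direction class it was 2.94 for PHO92, 2.83 for SLD2 and 2.45 for RGS2, which rose more in tanks, and -2.17 for DSE2, -2.01 for VBA4 and -1.84 for ALG12, which fell more in tanks. It was -3.06 for URN1, -3.05 for GIT1 and -2.58 for BTN2, which rose more in vials, and 2.75 for TPA1, 2.33 for CYB5 and 2.19 for RRG1, which fell more in vials.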

How the results depend on the processing

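All 34 genes named from the classes kept the sign and the call of their interaction under the 14 other settings and with each of the 12 arrays left out. They were picked for their large values, so this was likely beforehand and does not speak for the other members. Of the 3204 called genes, 2583 kept their class with quantile normalization repeated and 548 with a 2-fold change required. The class sizes depend on the threshold. With a 2-fold change required as well, there were 1177 interaction calls, 1531 tank changes and 1135 vial changes, with 31 genes in opposite directions, 473 in tanks only, 297 in vials only, 77 in the same direction and 299 with neither change called. At an adjusted p under 0.01 the opposite class held 291 genes and the same-direction class 650. With array weights the opposite class held 735 genes and the class with neither change called 26. Tanks only then held 640 genes and vials only 727, so the order of these 2 classes was reversed. Leaving out each array gave 2888 to 3162 interaction calls. The opposite class kept 417 of its 489 genes with arrays centred and 408 with quantile normalization repeated. The replicate block gave 3140 interaction calls and 474 opposite genes, and changed no named call; only 1 of 6 day 5 arrays correlated best with its own number. Of the total calls per list, 59 of 672 moved by over 1.5 times under the other settings and 10 of 576 with an array left out. Promoter motifs, and with them the shorter promoter window, were not run. The 3 arrays a group limit how small a difference can be called.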
